A study of Mus musculus with 6 samples.

Results

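The immunoglobulin probes of the array were those whose deposited gene name starts with Igh, Igk or Igl, apart from Ighmbp2 and Iglon5, together with the probes of the joining chain gene Jchain, which the files call Igj. They numbered 44 of 41174 probes, under 25 of 27344 gene names: 18 for the heavy chain, 14 for kappa, 10 for lambda and 2 for Jchain. The RNA was from sorted liver CD8+ T cells of C57BL/6 females, 13 to 14 weeks old, with 3 samples in each of 2 groups and 1 one-colour Agilent array a sample. TGC3 mice carried dnTGFβRII, a dominant negative TGF-beta receptor II, and lacked the chemokine receptor CXCR3 (dnTGFβRII CXCR3-/-). TG mice carried dnTGFβRII alone. The labels do not say what drives dnTGFβRII, and no group without it was used here. The study asked what CXCR3 does in the activation and proliferation of CD8+ T cells.

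An antibody is made of heavy chains and of kappa or lambda light chains. Each chain joins a variable region, assembled in B cells by recombination of V, (D) and J segments, to a constant region. The heavy chain locus holds its constant genes in a row, mu first and alpha last, and a B cell that switches class joins its variable region to a constant gene further along. The joining chain, encoded by Jchain and unrelated to the J segments, links IgA and IgM into polymers and is made by plasma cells. T cells do not assemble functional antibody genes, but transcripts of the unrearranged mu constant region are known in them.

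The files name many of these probes after a cDNA clone, so sequence and position (mm9, as deposited, 60 bases each) say more than the name. A set of 3 probes named Igh-VJ558 and described as a J558 family heavy chain carried the highest fold changes among these probes, and their sequences are shown because their names and positions disagree. They lie on the minus strand of chromosome 12 between 114496985 and 114497302 and are called alpha-end probes here:
alpha-end probe 1: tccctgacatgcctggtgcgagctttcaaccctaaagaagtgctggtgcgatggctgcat
alpha-end probe 2: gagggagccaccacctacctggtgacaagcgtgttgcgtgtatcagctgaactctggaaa
alpha-end probe 3: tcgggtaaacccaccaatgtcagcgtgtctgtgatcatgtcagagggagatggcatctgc

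Of the 18 heavy chain probes, 0 lie at lower positions than these. The nearest probe on the other side is 5857 bases away and is described as a hypothetical I alpha polypeptide. The gamma 3 probe is 99.1 kb away and the mu probe 159.6 kb. The other 7 Igh-VJ558 probes not described as alpha lie beyond the mu probe, at 115984604 to 117190882, at least 1327.7 kb from it. In RefSeq (GRCm38, used for gene order alone) the constant genes run Igha, Ighe, Ighg2c, Ighg2b, Ighg1, Ighg3, Ighd and Ighm in the direction of rising position. The alpha-end probes thus lie at the constant gene end of the locus, beside the I alpha probe and far from the J558 segments. The files name no constant gene for them.

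For lambda, a pair of probes of Iglv1 spans the junction of the V and the J segment. Their 60 bases match positions 21.8 kb apart on chromosome 16 and are contiguous only where V and J have been joined. They share 41 identical bases, and capitals mark the 1 mismatched base and the 3 bases that the second probe has beyond the first:
V-J probe 1: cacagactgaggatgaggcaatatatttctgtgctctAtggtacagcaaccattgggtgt
V-J probe 2: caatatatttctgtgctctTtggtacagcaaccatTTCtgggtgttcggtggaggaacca

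Downstream of the J segment, on the side where RefSeq places Iglc1, the lambda constant 1 gene, lie 2 further Iglv1 probes, 1216 and 1448 bases beyond V-J probe 2. The nearer one (19062058 to 19062117) resembles Igll1, which encodes a part of the surrogate light chain of precursor B cells. The pair shares 33 identical bases, and capitals mark the 10 that differ within the shared stretch:
lambda chain downstream probe: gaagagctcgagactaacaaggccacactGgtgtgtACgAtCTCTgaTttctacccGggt
Igll1 probe: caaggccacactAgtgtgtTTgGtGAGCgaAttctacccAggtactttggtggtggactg

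A probe was tested if the scanner software called it well above background on at least 3 of the 6 arrays, which 18 of the 44 did: 11 heavy chain, 1 kappa, 4 lambda and 2 Jchain probes. Another 14 were above background on no array. The filter passed 25103 probes in all. Signals are given in intensity units as deposited, and changes (TGC3 minus TG, log2, ± standard error) come from limma after scaling each array to its 75th percentile, with p adjusted over all probes tested (Benjamini-Hochberg). The labels do not state that samples of a group were different mice, and the p-values rest on the spread among samples, which may be technical. The slide and its scan cannot be told apart from genotype in any value below, since 1 slide held the TGC3 arrays and another the TG arrays. Cxcr3, the gene removed in TGC3, had signals of 23.8, 33.0 and 27.0 in TGC3 against 68779, 66107 and 73352 in TG. The brightest Cd8a probe, for the CD8 alpha chain that defines the sorted cells, had 103427, 94440 and 100024 in TGC3 and 110937, 93787 and 124967 in TG.

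Of the 18 probes tested, 8 were higher and 1 was lower in TGC3 at an adjusted p under 0.05, where 13.7% of all tested probes were higher and 8.37% lower. The 8 were the 3 alpha-end probes, 3 of the lambda probes and both Jchain probes, and the lower one was the mu constant probe of Ighm. A pair of the 8, Jchain probe 2 and the nearer downstream probe of Iglv1, passed the filter through TGC3 alone and had to differ. With dim values raised to the lowest signal above background on each array, both lost the call, and 6 of the 18 were higher, against 14.2% of all tested probes. The other 6 were at least 2-fold higher, as were 2.57% of all tested probes. The decrease of Ighm stayed under 2-fold, a size that 0.474% of tested probes passed. Dim probes rose more often in this comparison, and 10 of the 18 lay in the dimmest 25% of tested probes, of which 23.2% were higher and 5.45% lower. The median change was 0.54 for the 18 probes and -0.02 for all tested probes. With dim values raised and no filter it was 0.14 for all 44 and 0.11 for all probes. The 3 TGC3 values lay above the 3 TG values for 9 of the 18 probes and below them for 1, against 21.8% and 22.4% of all tested probes. In bulk RNA, fewer cells of a type and less RNA per cell cannot be told apart.

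**Figure D1:**
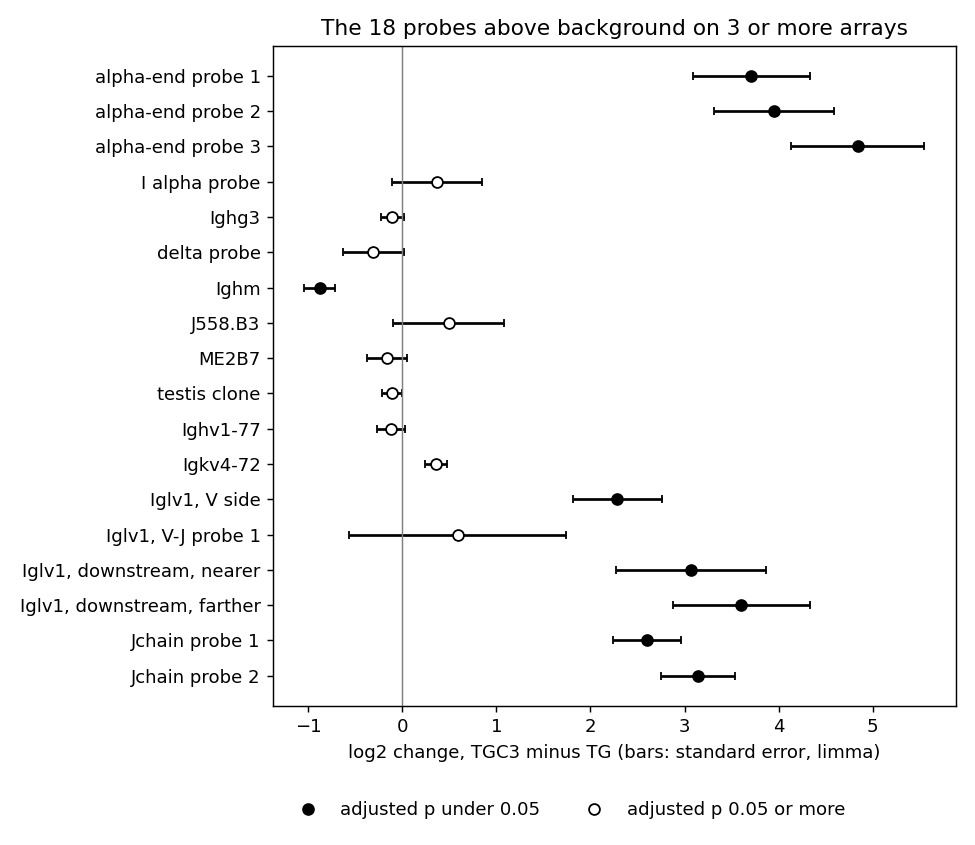
Log2 change, TGC3 minus TG, of the 18 tested immunoglobulin probes (points) with the standard error from limma (bars), by locus from top to bottom. Filled points passed an adjusted p of 0.05: the alpha-end probes, 3 Iglv1 probes and both Jchain probes lay above 0 and Ighm below. Jchain probe 2 and the nearer downstream Iglv1 probe are drawn at their fitted change, although their TG level is only a bound.

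By the part that the description names, 5 of the 11 tested variable region probes were higher, against 13.7% of all tested probes. However, 3 of these 5 are the alpha-end probes, whose position lies among the constant genes. Another of the 5 is the farther downstream probe of Iglv1, which lies beyond the J segment on the side of Iglc1. Of 4 probes counted as constant, 3 were tested and 1 was lower, where 8.37% of all tested probes were lower. The I alpha probe is 1 of these 3, and its description says alpha polypeptide without naming a constant region. Of 9 with no part stated, 2 were tested and 1 was higher, and neither Igll1 probe was above background on any array.

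Alpha-end probe 3 showed the highest fold change of the 18 probes. Its signal was 1701, 3064 and 435 on TGC3 1 to TGC3 3, against 47.7, 29.8 and 59.8 on TG 1 to TG 3. The lowest TGC3 array thus lay several times above the highest TG array, while the TGC3 arrays differed among themselves by 2.85 on the log2 scale and the TG arrays by 0.89. This gave a change of 4.84 ± 0.71, or 28.7-fold (adjusted p = 0.00754).

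The other alpha-end probes gave the same order of arrays in TGC3. Probe 2 read 568, 1026 and 167 in TGC3 and 26.5, 23.9 and 36.5 in TG, a change of 3.95 ± 0.64 (15.5-fold, adjusted p = 0.00989). Probe 1 read 486, 816 and 139 in TGC3 and 29.2, 23.2 and 32.0 in TG, a change of 3.71 ± 0.62 (13.1-fold, adjusted p = 0.0111). The 3 probes lie within the same transcript model and are not independent of each other. Each was above background on all 6 arrays, and each kept its call when any 1 array was left out. The sizes depend on the background correction: with normexp (offset 50, the 7 aberrant spot backgrounds set to their array's median) the changes of probes 3, 2 and 1 were 3.65, 2.46 and 2.37, each still past the threshold.

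The I alpha probe, 5857 bases away (114503159 to 114503217), did not show this difference. It read 80.3, 41.2 and 23.4 in TGC3, against 43.6, 27.7 and 26.2 in TG. TGC3 1 was the highest array and TGC3 3 the lowest, so that the groups overlapped. Its change was 0.37 ± 0.48 (adjusted p = 0.614) and turned to -0.11 without TGC3 1.

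Ighm, the constant region of IgM, is the immunoglobulin gene whose RNA fell. The Ighm probe (114656861 to 114656920) read 8494, 12222 and 8424 in TGC3, against 17353, 14946 and 18581 in TG. Every TGC3 array lay below every TG array, with a change of -0.88 ± 0.16 (adjusted p = 0.0147), so that TG was 1.84-fold higher. Without TG 1 the change was -0.83 with an adjusted p of 0.0522, over the threshold.

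The remaining probes at the constant gene end showed smaller differences. The probe described as the membrane form of the delta constant region, which the files name Ighv14-2 (114654277 to 114654336, 2.6 kb from the Ighm probe), read 57.2, 132 and 67.6 in TGC3, against 112, 94.1 and 81.3 in TG. The lowest and the highest array were both TGC3 arrays, and the change was -0.31 ± 0.33 (adjusted p = 0.530). IgD and IgM share the first part of their transcript in naive B cells. The Ighg3 probe, for the constant region of IgG3, read 53.2, 65.7 and 56.9 in TGC3 and 62.4, 64.1 and 54.8 in TG (change -0.11 ± 0.12, adjusted p = 0.566). The probe named Ighg, counted as constant, lies 513.4 kb beyond the Ighm probe, away from the constant gene end. It was above background on no array.

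**Figure D2:**
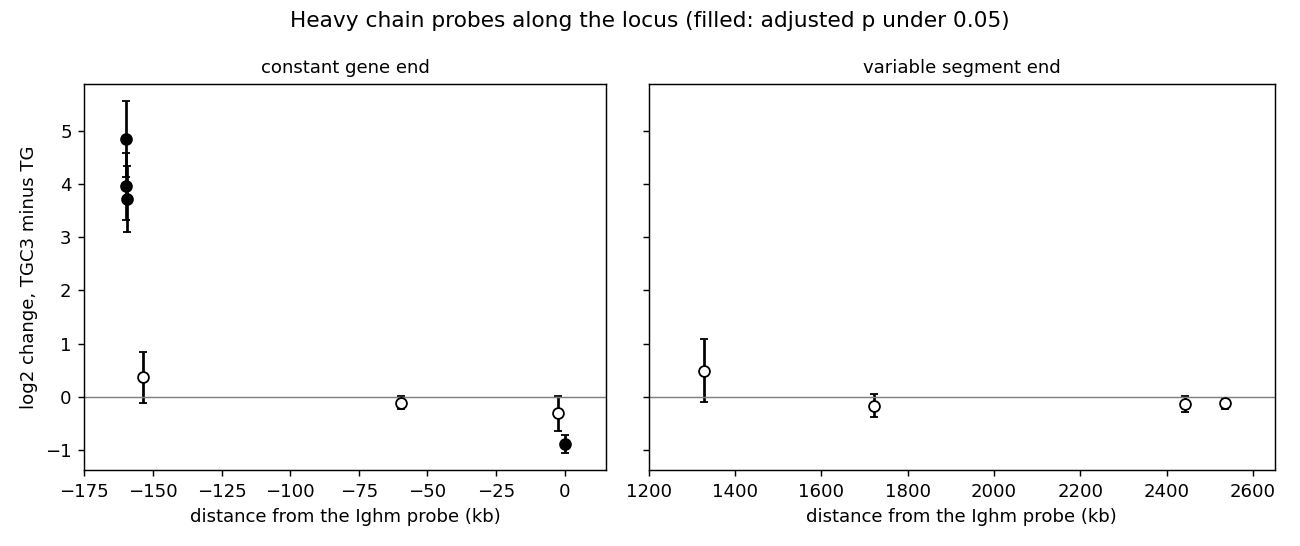
Log2 change, TGC3 minus TG, with its standard error (bars) of the 11 tested heavy chain probes against their distance from the Ighm probe in kb. The left panel covers the constant genes and the right panel the variable segments. The 3 filled points near -160 kb on the axis are the alpha-end probes, and the 4 variable segment probes lay between -0.16 and 0.49.

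At the variable end of the heavy chain locus, 4 probes under the naming rule were tested and 0 passed the threshold. Some heavy chain probes outside the rule that lie beyond the Ighm probe were called higher and are given under other observations. The clone J558.B3 probe of Igh-VJ558 varied most. It read 92.6, 157 and 255 in TGC3 and 49.1, 220 and 108 in TG, with the groups interleaved (change 0.49 ± 0.59, adjusted p = 0.582). Hybridoma clone ME2B7, a testis cDNA clone and Ighv1-77 changed by -0.16 ± 0.22, -0.11 ± 0.10 and -0.12 ± 0.15 (adjusted p = 0.619, 0.469 and 0.583). At an unadjusted p under 0.05, limma called 0 of these 4, against 37.5% of all tested probes.

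Jchain was read by 2 probes on the minus strand of chromosome 5. Probe 1 (88949919 to 88949978) read 77.05, 130 and 48.5 in TGC3, against 10.2, 11.3 and 16.5 in TG. It was above background on all 3 TGC3 arrays and 1 TG array, and its groups did not overlap. The change was 2.60 ± 0.36 (6.08-fold, adjusted p = 0.00664). Probe 2 (88950089 to 88950148) read 35.9, 54.0 and 18.2 in TGC3, against 3.39, 3.01 and 4.41 in TG, where it was above background on 0 arrays. This probe passed the filter through TGC3 alone, and its TG level is only a bound. Against the lowest signal that counted as above background on each TG array (12.05 to 14.27 units), it was at least 2.43-fold higher in TGC3. The fitted adjusted p was 0.00496, and 0.05195 when dim values were raised to that lowest signal. With normexp on the same backgrounds, probe 1 changed by 0.88 and probe 2 by 0.57 (adjusted p = 0.0136 and 0.0207). The order of the TGC3 arrays was that of the alpha-end probes, TGC3 2 above TGC3 1 above TGC3 3.

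**Figure D3:**
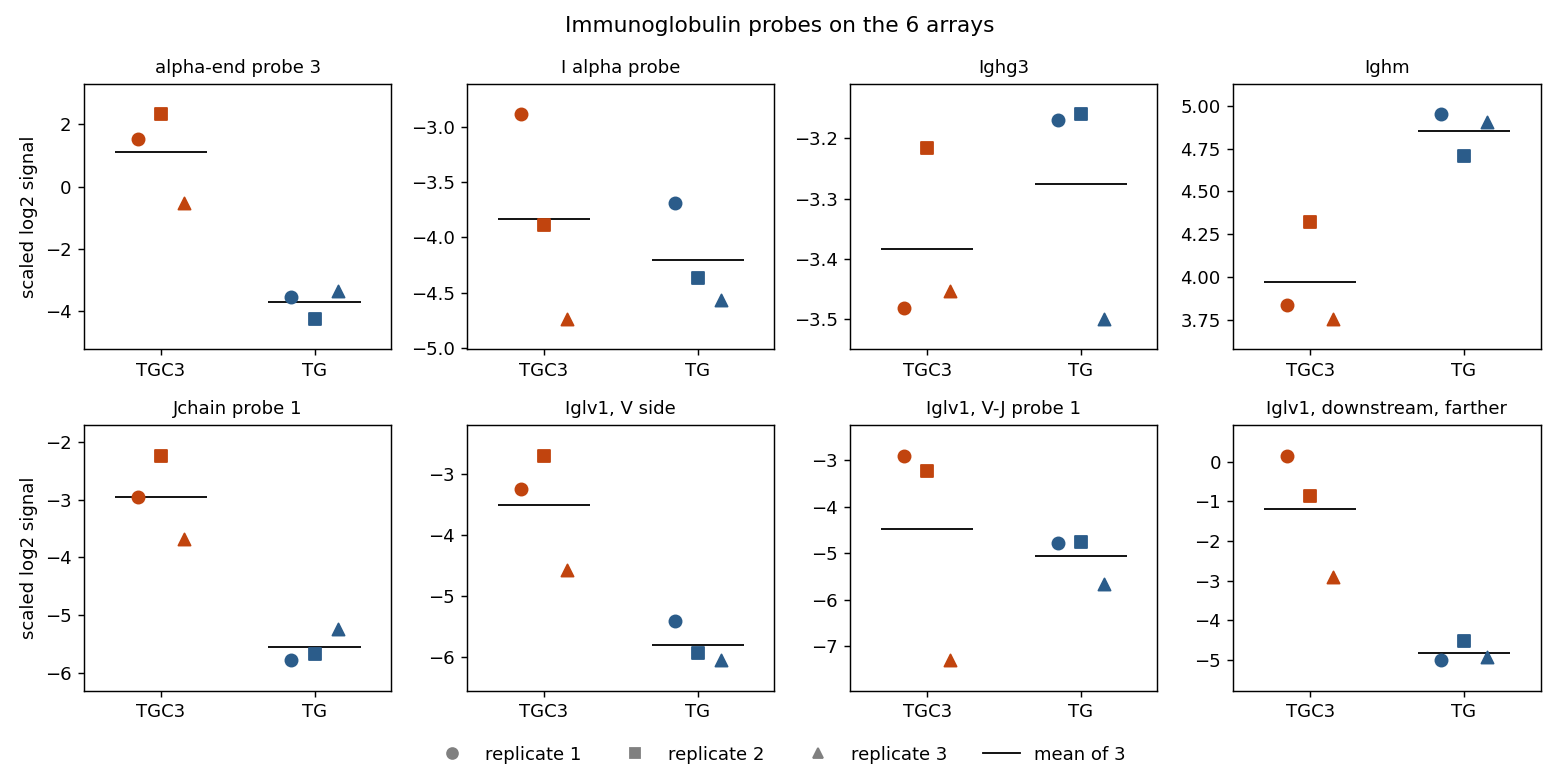
Scaled log2 signal (log2 intensity minus the array's 75th percentile) of 8 tested immunoglobulin probes on the TGC3 arrays (left in each panel) and the TG arrays (right), with the mean of 3 as a line. Each panel has its own axis. The groups lie apart for alpha-end probe 3, Jchain probe 1 and the outer Iglv1 probes, lie apart the other way for Ighm, and overlap for the I alpha and Ighg3 probes. For V-J probe 1 the lowest TGC3 and TG points were not above background and have no order.

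Lambda light chain RNA was read by 8 probes of Iglv1, the V segment used in most mouse lambda chains, and 4 of them were tested. The farther downstream probe (chromosome 16, 19061826 to 19061885) read 659, 337 and 82.7 in TGC3, against 17.6, 24.9 and 20.6 in TG, and was above background on all 6 arrays. TGC3 1 was the highest array here and TGC3 3 the lowest, still above TG. The change was 3.61 ± 0.73 (12.2-fold, adjusted p = 0.0192). The fits without TGC3 2, TG 1, TG 2 or TG 3 gave changes of 3.43, 3.51, 3.75 and 3.55 with adjusted p of 0.0530, 0.0616, 0.0543 and 0.0593.

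The nearer downstream probe, whose sequence is given above, read 162, 84.6 and 17.0 in TGC3, against 7.79, 7.26 and 6.13 in TG. It was above background on 0 TG arrays, so it passed the filter through TGC3 alone and was at least 4.57-fold higher in TGC3 (fitted adjusted p = 0.0397). The call was lost without TGC3 1, TGC3 2, TG 1, TG 2 or TG 3 (adjusted p between 0.0759 and 0.105) and when dim values were raised (0.0896). The probe on the V side (19085347 to 19085406) read 62.2, 93.7 and 26.0 in TGC3, against 13.1, 9.41 and 9.36 in TG, and was above background on 1 TG array. Its change was 2.28 ± 0.47 (4.87-fold, adjusted p = 0.0205), and the call was lost without TGC3 1, TG 2 or TG 3 (adjusted p = 0.0609, 0.0664 and 0.0655). In these 3 probes each TGC3 array lay above each TG array. With normexp as above, the changes of the farther, nearer and V side probes were 2.05, 0.98 and 0.66 (adjusted p = 0.0239, 0.0674 and 0.0312).

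V-J probe 1, which matches the joined V and J segments, was above background on 2 arrays of each group. It read 79.7, 65.0 and 3.97 in TGC3 and 20.6, 21.2 and 12.3 in TG. TGC3 1 and TGC3 2 lay above every TG array. TGC3 3 and TG 3 were not above background, so the order of those 2 was not measured. The change was 0.59 ± 1.15 (adjusted p = 0.745), and with dim values raised TGC3 was 2.14-fold higher (adjusted p = 0.282, short of the threshold). Without TGC3 3 it was 2.00 (adjusted p = 0.0212), and without TGC3 1 or TGC3 2 it was -0.20 or -0.03. V-J probe 2 read 48.2, 16.2 and 3.99 in TGC3 and 3.07, 3.19 and 3.63 in TG and was above background on TGC3 1 and TGC3 2 alone. The difference between the V-J probes and the downstream probes was not tested.

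Of the 14 kappa probes under the naming rule 1 was tested. Some light chain probes outside the rule on chromosome 6 were called higher and are given under other observations. Igkv4-72, a kappa variable segment, read 96.7, 98.9 and 83.3 in TGC3 and 64.8, 62.7 and 82.4 in TG. After scaling, its groups did not overlap, and its change of 0.36 ± 0.11 missed the threshold (adjusted p = 0.0699). The other kappa probes lay near background, with 2, 6 and 1 kappa probes above it on TGC3 1 to TGC3 3, against 1, 3 and 1 on TG 1 to TG 3. Igkv3-4 read 46.3 on TGC3 2, against at most 6.65 on any other array, and Igkv4-55 read 26.5, 36.0 and 9.69 in TGC3 and at most 12 in TG. A single TG array stood out for Igkv2-112, with 128 on TG 2 and at most 15.7 elsewhere. Igkv4-57-1 was above background on no array.

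Counted over all 44 probes, those above background numbered 22, 27 and 18 on TGC3 1 to TGC3 3, against 15, 17 and 15 on TG 1 to TG 3. The 26 probes that were not tested had 14 calls above background on TGC3 arrays and 4 on TG arrays. Between 58.86% and 63.78% of all probes were above background on an array, the highest share on TGC3 2.

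The TGC3 array that was highest differed between probes, a difference that was not tested. In the 8 probes called higher, TGC3 3 was the lowest TGC3 array. TGC3 2 was highest for the alpha-end probes, Jchain and the V side probe of Iglv1, and TGC3 1 for both downstream probes of Iglv1. Relative to the mean of the TG arrays, alpha-end probe 3 was higher by 5.25, 6.06 and 3.21 on TGC3 1 to TGC3 3 and the farther downstream probe by 4.96, 3.96 and 1.90, on the log2 scale.

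**Figure D4:**
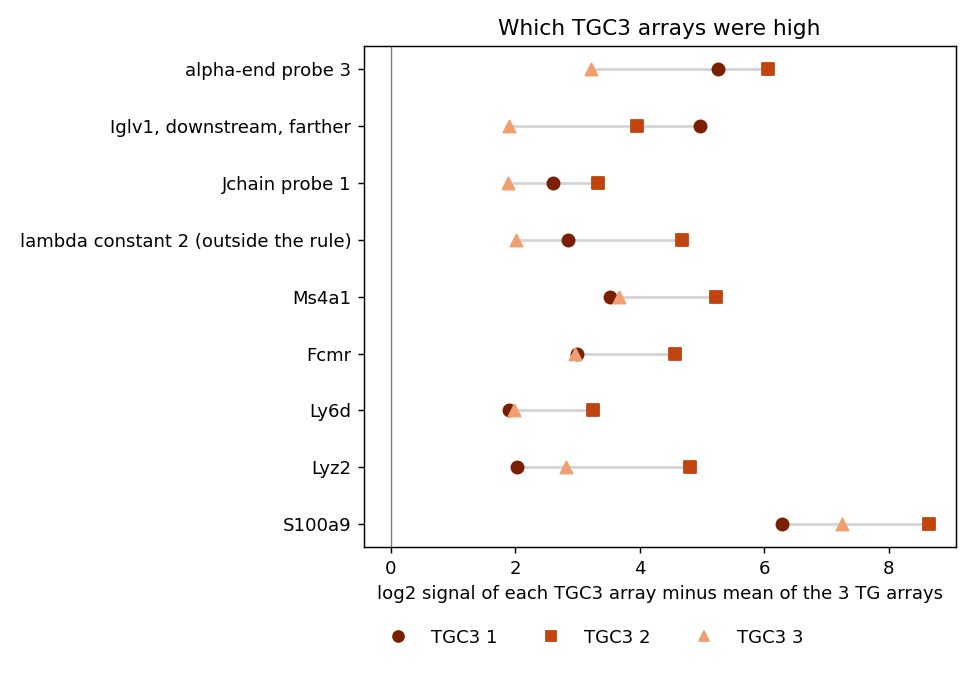
Scaled log2 signal of each TGC3 array minus the mean of the 3 TG arrays, for 3 immunoglobulin probes, a lambda constant 2 probe outside the naming rule and 5 genes of other lists. TGC3 3 was the lowest array for the 4 immunoglobulin probes and, narrowly, for Fcmr. TGC3 1 was the lowest for Ms4a1, Ly6d, Lyz2 and S100a9.

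Markers of the cells that make antibody were followed in fixed lists, each gene by its brightest tested probe. Ms4a1, Fcmr, S100a8 and Ly6d passed the filter through TGC3 alone, so they had to differ, and each is given as a bound with its fitted adjusted p. Of 20 B cell markers 12 were tested, of which 6 were higher and 4 lower in TGC3 (median change 0.23), beside 13.7% and 8.37% of all tested probes. Ms4a1, which encodes CD20, read 30.2, 101 and 35.2 in TGC3 and 2.42, 2.53 and 2.85 in TG, where it was above background on no array, and was at least 3.52-fold higher in TGC3 (fitted adjusted p = 0.00337). Tnfrsf13c, the receptor for BAFF, rose by 0.95 ± 0.16 (adjusted p = 0.0105).

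Other genes of that list fell. Cxcr5, the receptor for CXCL13 that T cells can also carry, changed by -1.53 ± 0.14 and Cd72, a B cell co-receptor, by -1.05 ± 0.12 (adjusted p = 0.00232 and 0.0037). The summed level of the list was 14.8 to 15.7 times the array's 75th percentile in TGC3, against 19.5 to 21.8 in TG. Pax5 and Blk, B cell identity genes, were above background on no array. The B cell list's part in the immunoglobulin result was not tested.

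Of 22 plasma cell and secretion genes 19 were tested, of which 1 was higher and 1 lower, beside 13.7% and 8.37% of all tested probes. The median was -0.08, and the summed level was 167 to 178 in TGC3 and 172 to 194 in TG. Derl3, a factor of protein degradation in the endoplasmic reticulum, rose by 0.58 ± 0.12 (adjusted p = 0.0193). Herpud1, induced by endoplasmic reticulum stress, fell by 0.24 on the log2 scale (adjusted p = 0.0488). Mzb1, a chaperone of IgM assembly, missed the filter, with signals of 17.1, 25.6 and 14.8 in TGC3 and 7.11, 7.03 and 6.56 in TG. Where any of its spots above background sufficed, it passed through TGC3 alone and was at least 1.38-fold higher in TGC3. Sdc1, which encodes CD138, and Tnfrsf17, which encodes BCMA, both markers of plasma cells, were above background on no array.

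Genes that rearrange, switch or mutate immunoglobulin loci were a further list: 16 of 19 were tested, 2 were higher and 0 lower, beside 13.7% and 8.37% of all tested probes (median -0.05). Exo1, an exonuclease of DNA mismatch repair, rose by 0.90 ± 0.14 and Polh, a DNA polymerase of lesion bypass, by 0.37 ± 0.09 (adjusted p = 0.00993 and 0.0339). Rag1 and Rag2, which encode the recombinase that joins V, D and J segments, were above background on no array. Of 16 transcription factors that act on immunoglobulin loci, 12 were tested and limma called 0, with 2 at an unadjusted p under 0.05, as had 37.5% of all tested probes (median -0.02).

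Among 12 receptors that bind immunoglobulin, 8 were tested, 2 were higher and 1 lower, beside 13.7% and 8.37% of all tested probes (median -0.11). Fcmr, the IgM receptor, read 36.0, 109 and 36.9 in TGC3 and 5.39, 5.06 and 3.19 in TG, and was at least 3.89-fold higher in TGC3 (fitted adjusted p = 0.00633). Fcgr2b, the inhibitory IgG receptor, rose by 0.63 ± 0.14 (adjusted p = 0.0265), and Fcer1g, the shared signalling chain of Fc receptors, fell by 0.93 on the log2 scale (adjusted p = 0.0241). Pigr, which carries polymeric IgA across epithelium, was above background on no array.

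Some markers of other cells also differed between the groups. The counts here and for dendritic, hepatocyte, erythroid and T cell markers stand beside 13.7% higher and 8.37% lower among all tested probes. Of 12 neutrophil markers 4 were tested and 2 were higher, S100a9, above background on 1 TG array, by 7.39 ± 0.71 and S100a8 at least 28.2-fold (adjusted p = 0.00259 and 0.0022), with a summed level of 1.68 to 8.22 in TGC3 and 0.145 to 0.219 in TG. Of 13 macrophage and Kupffer cell markers 7 were tested and 3 were higher, Lyz2 by 3.22 ± 0.80, Marco by 0.38 ± 0.10 and C1qb by 0.35 ± 0.07 (adjusted p = 0.0349, 0.043 and 0.017), with sums of 1.33 to 3.42 in TGC3 and 0.878 to 1.04 in TG. C1qa, C1qc and Timd4 of that list, and Csf3r, Cxcr2, Elane and Mmp8 of the neutrophil list, were above background on no array.

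For 10 plasmacytoid dendritic cell markers, of which 7 were tested, 2 were higher and 1 was lower: Ly6d, which B cells also express, at least 4.64-fold, Klk1, above background on 1 TG array, by 1.15 ± 0.28 and Ccr9 by -1.13 ± 0.09 (adjusted p = 0.00776, 0.0331 and 0.00179), with sums of 18.1 to 20.4 in TGC3 and 26.2 to 30.8 in TG. Siglech and Cd300c were above background on no array. For 10 conventional dendritic cell markers, of which 7 were tested, 4 were higher: Zbtb46 by 1.36 ± 0.11, and Cd74, H2-Ab1 and Flt3, the first 2 of them also made by B cells, by 0.76 ± 0.19, 0.54 ± 0.15 and 0.42 ± 0.08 (adjusted p = 0.00178, 0.0379, 0.0445 and 0.0182), with sums of 17.4 to 27.7 in TGC3 and 20.2 to 23.2 in TG. Cd209a, Clec10a and Clec9a were above background on no array.

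Hepatocyte markers (2 of 12 tested) rose for Trf by 0.83 ± 0.07 and Hnf4a by 0.67 ± 0.13 (adjusted p = 0.00191 and 0.0169), with sums of 0.244 to 0.268 in TGC3 and 0.178 to 0.265 in TG, while Apoa1, Cps1, Cyp2e1, Fga, Fgb and Ttr were above background on no array. Erythroid markers (2 of 6 tested) rose for Slc4a1 by 0.98 ± 0.19 (adjusted p = 0.0181), with sums of 0.17 to 0.244 in TGC3 and 0.112 to 0.121 in TG, while Ahsp and Alas2 were above background on no array. All 12 T cell identity genes were tested, and Cd3g and Cd5 fell by 0.29 and 0.41 on the log2 scale (adjusted p = 0.0468 and 0.038). Of the 28 list genes named as changed, 12 kept their call without any 1 array, and 3 (Cd3g, Herpud1 and Marco) lost it whichever array was left out. The 12 include Ms4a1, Fcmr, S100a8 and Ly6d, which passed the filter through TGC3 alone. The calls of these genes, here and with normexp, are thus no further support. With normexp as above, Ms4a1 changed by 0.87, Fcmr by 0.74, Ly6d by 0.78, S100a8 by 2.58, S100a9 by 4.57 and Lyz2 by 2.21, all past the threshold, while Klk1, Slc4a1, Flt3, Hnf4a, Marco, C1qb and Herpud1 lost their calls (0.21, 0.33, 0.08, 0.18, 0.21, 0.17 and -0.22). The part that any of these cells has in the immunoglobulin result was not tested.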

How the data were processed

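The deposited scanner files hold 45018 spots an array (43379 not controls). Per the file headers they were read with Agilent Feature Extraction 10.7.3.1 (10.7.1.1 per the submitters' processing notes), which subtracted background from each intensity to give the processed signal used here. The authors' deposited matrix is on a log2 scale with equal column medians (5.57); how it was made is not stated. Spots of a probe were averaged, 11 probes with outlier spots were dropped, 0 spots were saturated, and each array was scaled to its 75th percentile. A probe was above background where at least 50% of its spots were. TGC3 was fitted against TG with limma 3.58.1 (R 4.3.3, two-sided), after a test on simulated data; sequences were aligned with Biopython 1.88 (Python 3.11.15). Named probes are all tested constant and Jchain probes, up to 10 increases and 10 decreases, the 5 widest ranges within a group, and up to 4 changed genes a list; the other probes described and Mzb1 were chosen after their values were seen. Members and lists were chosen with earlier results of these data known. Gene names were updated from RefSeq (27668 probes by accession, 5589 by symbol, 471 by synonym). Alternatives were other scalings, background corrections, filters and probe rules, array weights, a replicate block and leaving out each array. The number of arrays limits the precision. The results of some list genes are not reported here.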

Additional observations from a re-analysis of the deposited data

How the results depend on the processing

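The 8 immunoglobulin probes higher in TGC3 numbered 6 to 9 under the alternatives run, except 0 with normexp, 4 with a filter on all 6 arrays and 3 with 1 probe a gene, and 5 to 9 without any 1 array (5 without TG 2 or TG 3). The count lower was 1, but 2 with quantile scaling or the deposited matrix (the testis clone probe joined, -0.34 and -0.33), 0 with normexp or the replicate block, and 0 to 1 without any 1 array. Their median of 0.54 was 0.12 with 1 probe a gene and 0.44 to 1.41 without any 1 array. Without any 1 array the I alpha probe ranged from -0.11 to 0.82 and V-J probe 1 from -0.20 to 2.00. Calls that alternatives added were Igkv4-57-1 with no filter (1.65, adjusted p = 0.0182), and Igkv4-72 with array weights (0.41, adjusted p = 0.0286). Normexp on the spot backgrounds as deposited called 0 probes higher and 1 lower in all; with 7 spot backgrounds above 10 times their array's median set to that median, it called 7 immunoglobulin probes higher and 1 lower. With the deposited backgrounds the medians turned to -0.45 (immunoglobulin), -0.35 (B cell) and 0.093 (plasma cell), all 3 lists had 0 calls either way, and 21 of 47 named changes reversed: Jchain probe 1 to -0.021 and probe 2 to -0.47, the I alpha probe to -0.69, the V side and V-J probes of Iglv1 to -0.28 and -0.64, Ms4a1 -0.16, Cd5 0.029, Cd3g 0.15, Flt3 -0.73, Slc4a1 -0.48, Trf -0.46, Hnf4a -0.63, Fcmr -0.22, Marco -0.42, C1qb -0.49, Derl3 -0.42, Herpud1 0.16, Ly6d -0.11, Klk1 -0.73, Cd8a 0.26 and BC080787 -0.43.

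B cell markers stayed at 4 to 6 higher and 3 to 4 lower apart from normexp, but 2 were lower with no filter (median 0.52) or the replicate block; without any 1 array 4 to 6 were higher and 2 to 4 lower. Plasma cell genes had 0 higher and 0 lower with quantile scaling or the deposited matrix, 6 lower with median centring (median -0.25), 0 lower with no filter (median 0.031) or the replicate block, 2 lower with eBayes trend and robust, 3 lower with array weights, 2 higher where any spot above background sufficed, and 0 to 1 higher and 0 to 2 lower without any 1 array (median -0.12 to 0.0034). Median centring moved the median of all tested probes to -0.19. The groups share replicate numbers, but samples of the same number did not deviate together (correlations of -0.0014, -0.045 and -0.105); with the replicate block 8 immunoglobulin probes were higher and 0 lower (Ighm -0.88, adjusted p = 0.0529). Several probes lay near background in TG, where only bounds can be given. Raising dim values and the rule on spots were added after seeing the data. The causes of these shifts were not tested.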

Other observations

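The description of 83 further probes names an immunoglobulin chain although their gene name, an accession or a clone, falls outside the naming rule. They were chosen after values were seen: 25 were tested, 9 were higher and 1 lower in TGC3, against 13.7% and 8.37% of all tested probes. The highest change was that of the probe named JX120343, a heavy chain clone from C57BL/6 (mm9, chromosome 12, 116532287 to 116532346). By position it lies within the range of the J558 probes at the variable end. It read 92.5, 213 and 174 in TGC3 and 6.9, 4.93 and 3.19 in TG, where it was above background on no array, and was at least 11.2-fold higher in TGC3 (fitted adjusted p = 0.00186, change 1.77 with normexp and aberrant backgrounds replaced). It passed the filter through TGC3 alone and had to differ. Here TGC3 1, not TGC3 3, was the lowest TGC3 array. The heavy chain probes JX120338 (115097549 to 115097608) and TC1774801 (115000655 to 115000714), also beyond the Ighm probe, were higher too. Their changes were 0.63 ± 0.09 and 0.49 ± 0.10 (adjusted p = 0.00635 and 0.0176). Apart from the heavy constant mu probes given below, the other tested heavy chain probes outside the rule beyond the Ighm probe missed the threshold. Their changes lay on both sides of 0.

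Other probes outside the rule, also picked after their values were seen, lay on both sides of 0. The 4 described as heavy constant gamma 1 or gamma 2C missed the filter. The probe named X87228, described only as heavy chain, lies at 114567137 to 114567196 on chromosome 12. A gamma 1 probe lies beside it (114567263 to 114567322). X87228 read 125, 138 and 130 in TGC3 and 76.0, 81.6 and 100 in TG, above background on every array (change 0.56 ± 0.09, adjusted p = 0.00897). The probe described as lambda constant 2, ENSMUST00000103749 (chromosome 16, 19198545 to 19198604), read 105, 382 and 61.7 in TGC3 and 14.3, 12.3 and 16.7 in TG, with TGC3 2 the highest array and 1 TG array above background (change 3.18 ± 0.63, adjusted p = 0.0183, and 0.0562, 0.061 and 0.0525 without TG 1, TG 2 or TG 3). With normexp as above its change was 1.39 (adjusted p = 0.0434). A cDNA of the kappa chain complex, BC080787 (chromosome 6, 70557842 to 70557901), read 51.8, 81.0 and 61.5 in TGC3 and 30.1, 29.9 and 32.0 in TG (change 1.00 ± 0.15, adjusted p = 0.00871, and 0.40 with that normexp). The light chain variable probes JX420736, HQ446585 and NP060121 on chromosome 6 rose by 0.73 ± 0.12, 0.39 ± 0.07 and 0.68 ± 0.17 (adjusted p = 0.0102, 0.0114 and 0.0373). The other tested light chain probes outside the rule on that chromosome missed the threshold. A pair of probes described as heavy constant mu, both ENSMUST00000103426, lie at 114659630 to 114659689 and 114659100 to 114659159 on chromosome 12. The first read 1102, 1676 and 1234 in TGC3 and 2211, 1911 and 2186 in TG, a change of -0.73 ± 0.16 (adjusted p = 0.0239), a call kept only without TGC3 2 when 1 array was left out. The second read 5940, 10208 and 6356 in TGC3 and 10987, 10470 and 12359 in TG, a change of -0.69 ± 0.20 that missed the threshold (adjusted p = 0.0573, and 0.0346 with that normexp).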
